A study of Homo sapiens with 9 samples.

Results

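Regions marked by H3K4me3 in control HEL cells that kept a peak in METTL3-KO cells, but in neither METTL14-KO nor WTAP-KO cells, were examined. HEL is an established human erythroleukemia line. CUT&RUN, in which an antibody guides a nuclease to a histone mark and the released fragments are sequenced, had been run on 9 libraries: 3 NTC libraries, whose guide had no target in the genome, and 2 libraries for each knockout (KO) of METTL3, METTL14 or WTAP by CRISPR. All groups carried the lentiviral Cas9 vector of the study's methods, and the knockouts were transduced populations, not single clones. Peaks of all 9 libraries that shared at least 1 bp were merged into 30404 regions, of which 16226 had a peak in all 3 NTC libraries. The members were selected on presence of a peak in all 3 NTC and both METTL3-KO libraries and in no METTL14-KO or WTAP-KO library, which left 1166 regions, or 7.19% of the NTC regions. Absence from METTL14-KO and WTAP-KO is therefore how the regions were chosen and not a result.

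H3K4me3 is laid down mainly at the starts of active genes by SET1 and MLL complexes, and CpG-rich promoters carry it most often, in part because the SET1 subunit CXXC1 binds unmethylated CpG. METTL3 is the catalytic subunit of the RNA methyltransferase that writes m6A, METTL14 is its RNA-binding partner, and WTAP is the adaptor that brings the pair to nuclear speckles. The rule compares peak calls after loss of the catalytic subunit with those after loss of its partners.

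The members included CpG-dense promoters and a CpG-poor site in an intron, and a few sequences are shown as examples. Each is 200 bases of hg19 inside a member and outside annotated exons, written 5′ to 3′, with every CpG in capitals. The promoters of CXXC1, YTHDC1 (a nuclear m6A reader), RBBP5 (a core subunit of H3K4 methyltransferases) and KLF13 (a Krüppel-like factor) end at the base before the outermost start of the gene and follow the strand of the gene. The window in an intron of PSMB2, a proteasome subunit gene, is the centre of the member of highest NTC signal and follows the plus strand.
CXXC1, chr18:47814210-47814409, minus strand: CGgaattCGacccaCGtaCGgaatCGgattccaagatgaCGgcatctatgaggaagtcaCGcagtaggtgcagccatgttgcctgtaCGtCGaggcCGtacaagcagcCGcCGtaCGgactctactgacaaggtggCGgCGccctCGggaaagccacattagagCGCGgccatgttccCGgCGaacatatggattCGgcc
YTHDC1, chr4:69215809-69216008, minus strand: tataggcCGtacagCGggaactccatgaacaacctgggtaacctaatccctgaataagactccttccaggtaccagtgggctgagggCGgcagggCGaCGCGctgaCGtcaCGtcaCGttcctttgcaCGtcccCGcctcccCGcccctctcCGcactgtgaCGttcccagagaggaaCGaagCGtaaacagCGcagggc
RBBP5, chr1:205091144-205091343, minus strand: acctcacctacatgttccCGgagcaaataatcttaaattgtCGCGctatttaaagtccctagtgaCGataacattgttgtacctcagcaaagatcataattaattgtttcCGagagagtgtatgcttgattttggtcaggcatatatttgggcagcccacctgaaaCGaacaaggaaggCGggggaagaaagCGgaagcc
KLF13, chr15:31618838-31619037, plus strand: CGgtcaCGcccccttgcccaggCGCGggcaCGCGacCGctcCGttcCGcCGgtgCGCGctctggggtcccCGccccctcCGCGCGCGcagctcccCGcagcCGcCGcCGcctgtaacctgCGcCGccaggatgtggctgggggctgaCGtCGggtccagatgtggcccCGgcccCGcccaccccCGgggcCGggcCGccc
PSMB2 intron, chr1:36103601-36103800, plus strand: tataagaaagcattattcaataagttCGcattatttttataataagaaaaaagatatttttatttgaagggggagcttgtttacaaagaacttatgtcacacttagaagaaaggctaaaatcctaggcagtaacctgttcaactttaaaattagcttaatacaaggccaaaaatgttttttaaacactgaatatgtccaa
The 200 bases before KLF13 held 30 CpG and those before CXXC1 held 21. YTHDC1 had 17 and RBBP5 had 8. The PSMB2 window held 1, with a GC content of 28.0%. The windows differ in placing, so their counts are not a like comparison. At the centre of the region KLF13 held 22 CpG and YTHDC1 held 6.

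The same rule turned to the other subunits found 1 region each. With the groups exchanged, 1 NTC region had a peak in both METTL14-KO libraries and in no METTL3-KO or WTAP-KO library, and 1 had a peak in both WTAP-KO libraries alone. On METTL14-KO replicate 1 without replicate 2 the METTL14-KO count was 60, and on either WTAP-KO library without the other the WTAP-KO count was 3. METTL3-KO kept 3060 NTC regions in both libraries, METTL14-KO kept 893 and WTAP-KO kept 720, so the members were 38.1% of what METTL3-KO kept. Of the remaining 1894 regions kept in METTL3-KO, 726 had a peak in 1 METTL14-KO or WTAP-KO library alone, and 609 of these had it in METTL14-KO replicate 1. Without that library the rule would have taken 1775 regions, and without METTL3-KO replicate 2 it would have taken 1936.

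The edge of the rule is shown by regions of high NTC signal that missed it by 1 library. SRPK1, which encodes a kinase of splicing factors, missed it by a peak of 1581 in METTL14-KO replicate 1, with METTL3-KO signals of 5067 and 1960. PPARD, which encodes a nuclear receptor, missed it by a WTAP-KO replicate 2 peak of 329. A region at the start of TIAM1 on chromosome 21, with a mean NTC signal of 26961, missed it because METTL3-KO replicate 1 had no peak, with a signal of 577 in replicate 2. Just inside lay a member at a lncRNA start, chr18:59272875-59274260, whose METTL3-KO signals were 145 and 48.1. In all, 1326 NTC regions had a peak in 1 METTL3-KO library and in no other KO library.

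Depth is unknown, since the lists hold peaks without fragment totals, so counting intervals could not be computed. The signal is the calibrated coverage of the authors, and 99.9% or more of the values tested in each library were whole multiples of a step, within 0.05 of a step, read here as the worth of 1 fragment. The step was 1.14 to 1.32 in NTC, 0.461 and 1.07 in METTL3-KO, and 0.320 to 0.440 in METTL14-KO and WTAP-KO, while the lowest peak had a signal of 30.1 to 32.0 everywhere. A peak in METTL14-KO or WTAP-KO thus stood on 70 to 94 steps at the least, in METTL3-KO on 66 and 30, and in NTC on 24 to 28. Steps are not a count of distinct fragments. If a lowest signal sums 2 stretches of coverage, the stack would be 35 to 47 fragments in METTL14-KO and WTAP-KO. It would then be 33 and 15 in METTL3-KO, and 12 to 14 in NTC. With a floor of 94 steps in every library, an alternative chosen after seeing the data, the rule took 1116 regions. METTL3-KO replicate 1 and METTL14-KO replicate 1 had like steps, 0.461 and 0.440, and 2131 NTC regions had a peak in the first and not in the second, against 159 the other way round. The markers GATA1, KLF1, GYPC, EPOR and ITGA2B had an NTC peak at a start in all 3 libraries, TAL1 had none, and NFE2 lay near a region with a peak in some NTC library. Of 10 genes of lymphoid cells, CD79B and PAX5 were marked in all 3. None of these marker genes lay at a member.

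H3K4me3 at the members was far weaker in METTL3-KO than in NTC although a peak remained. The median signal over the 1166 regions was 7049, 7231 and 8640 in the NTC libraries, and 846 and 480 in the METTL3-KO libraries. The mean METTL3-KO signal of a region was a median of 9.43% of its mean NTC signal, with 4.02% and 19.1% as the limits of the lowest and highest decile. The highest value was 50.0%, at CACTIN. Both METTL3-KO libraries were below all 3 NTC libraries in 1164 members, and in 3013 of all 3060 regions. Replicate 1 was above replicate 2 in 896 of the 1166 members, with a median ratio of 1.76 between them.

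In limma, 1163 of the 1166 members passed an adjusted p of 0.05 with a lower signal in METTL3-KO, and none with a higher one, where 98.4% of all 3060 regions with a peak in these 5 libraries passed as lower. The median log2 change was -3.53 at the members, -2.90 over all 3060 and -2.54 over the 1894 regions that METTL14-KO or WTAP-KO also kept. The rule used presence in these same libraries, so a fall to no peak could not enter, and the counts are descriptions of the members. The labels do not say that replicates came from separate cultures, so the p-values measure only the spread between these libraries. When each library was centred on its median log2 signal over the 3060 regions, 303 members (26.0%) passed as lower and 30 (2.57%) as higher. Over all regions 13.2% were lower and 23.5% higher on that scale, and the median change was -0.54 at the members and 0.10 over all. Dividing by the step, read as 1 fragment, takes out the calibration and puts no scaling for depth in its place. It also raises METTL3-KO replicate 1 (step 0.461) against replicate 2 (step 1.07), which was already lower at most members. Dividing by the step gave a median of -2.70 at the members and -2.06 over all regions, with 942 members and 1565 of all 3060 regions lower.

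The 3 members that did not pass were CACTIN, ATG3/SLC35A5 and EFR3A. CACTIN, which encodes a splicing-associated protein, had NTC signals of 533, 1159 and 869 and METTL3-KO signals of 365 and 489. At the start shared by ATG3, an autophagy enzyme, and SLC35A5, the NTC signals were 11471, 7440 and 263. EFR3A, which encodes a plasma membrane protein, had 80.3, 11939 and 12862 in NTC. These 2 regions were each low in 1 NTC library, and their METTL3-KO signals lay between 776 and 2292.

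**Figure D1:**
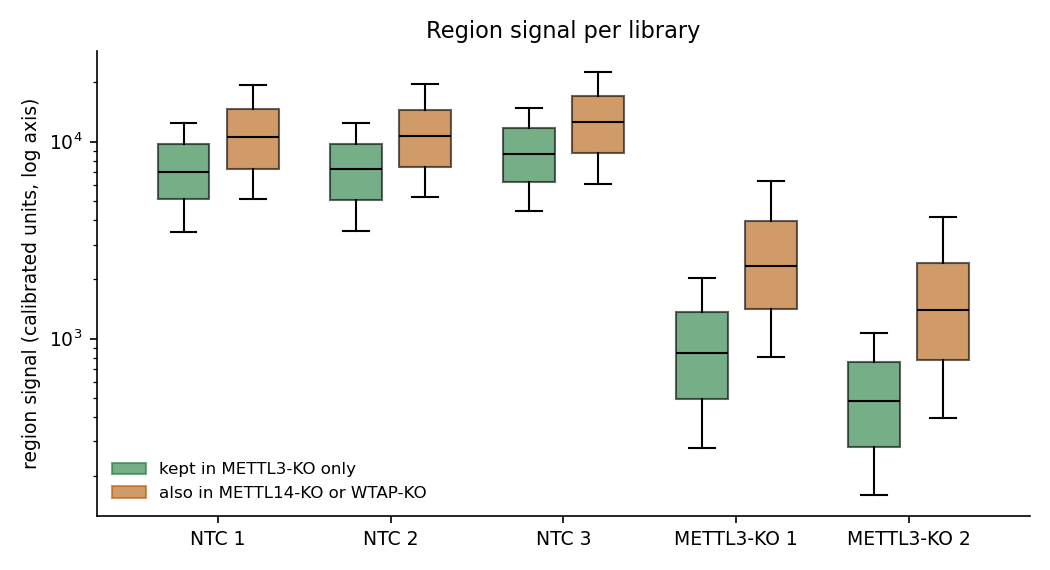
Region signal in calibrated units (log axis) in each NTC and METTL3-KO library, for the 1166 regions kept in METTL3-KO only and the 1894 also kept in METTL14-KO or WTAP-KO. Boxes span the quartiles with the median as a line, and whiskers leave out the lowest and the highest decile of regions. Medians of the members fall from between 7049 and 8640 in NTC to 846 and 480 in METTL3-KO.

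The peaks that remained were also shorter. A member had a median of 1308 to 1339 covered bp in the NTC libraries, and 358 and 309 in METTL3-KO, a median of 28.8% per region. Fewer bases were covered in METTL3-KO in 1154 members at an adjusted p of 0.05 in limma, against 97.1% of all 3060 regions, with a median log2 change of -1.86 at the members and -1.44 over all. In the regions also kept in METTL14-KO or WTAP-KO, 44.4% of the NTC bases remained. No deposited peak was narrower than 150 bp or wider than 2000 bp.

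The members came mostly from the upper deciles of NTC signal. In deciles of mean NTC signal over the 16226 NTC regions, there was no member in the first decile and there were 83 in the sixth, 265 in the eighth, 372 in the ninth and 247 in the tenth. As a share of the decile this was 22.9% in the ninth and 15.2% in the tenth. Regions that METTL14-KO or WTAP-KO also kept made up 29.3% of the ninth and 62.0% of the tenth decile, and regions with no KO peak 29.2% and 11.2%. The median of the mean NTC signal was 7634 at the members, 11290 at the regions also kept in METTL14-KO or WTAP-KO, and 1868 at the regions with no KO peak.

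**Figure D2:**
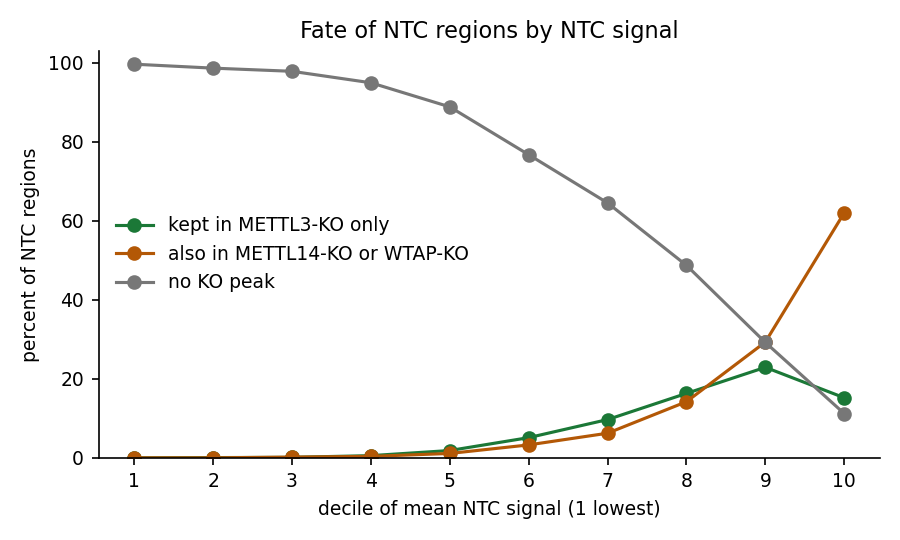
Percent of the NTC regions in each decile of mean NTC signal (1 is the lowest) that were kept in METTL3-KO only, were kept in METTL3-KO and at least 1 METTL14-KO or WTAP-KO library, or had no KO peak. Members peak at 22.9% in the ninth decile, while the regions kept more widely reach 62.0% in the tenth.

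At equal NTC signal the members held less METTL3-KO signal than regions that METTL14-KO or WTAP-KO also kept. The rule separates these classes by METTL14-KO and WTAP-KO peaks, and whether the difference follows from that choice was not tested. In the ninth decile the NTC medians were 8219, 8340 and 9886 at the 372 members and 8505, 8507 and 10150 at the 476 others. In METTL3-KO replicate 1 the medians were 1031 at the members and 1915 at the others, and in replicate 2 they were 552 and 1147. In the eighth decile the same libraries gave 732 against 1318 and 450 against 785. Both libraries were lower at the members in each of the deciles 5 to 10, and no test was made over regions. In the tenth decile NTC signal was not equal, with medians of 12270, 12220 and 14600 at the members and 14270, 14270 and 16740 at the others. The METTL3-KO signal was 9.04% of NTC at members of the ninth decile and 17.0% at the others.

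METTL3-KO coverage at members was highest near the start, though most members had no METTL3-KO peak over it. At the 1005 members within 1 kb of a coding start, 75.3% to 78.4% had an NTC peak over the start (1 start per region), and 37.1% and 34.0% had a METTL3-KO peak there. At 500 bp downstream the METTL3-KO shares were 22.3% and 20.7%, and at 500 bp upstream 15.9% and 14.0%. The NTC shares at these sites were 71.1% to 73.3% downstream and 59.7% to 61.6% upstream. The METTL3-KO share was highest 20 bp upstream in replicate 1 and 40 bp downstream in replicate 2. In the regions also kept in METTL14-KO or WTAP-KO, 67.1% and 61.6% had a METTL3-KO peak over the start, METTL14-KO had 53.1% and 24.8%, and WTAP-KO had 16.2% and 17.6%.

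**Figure D3:**
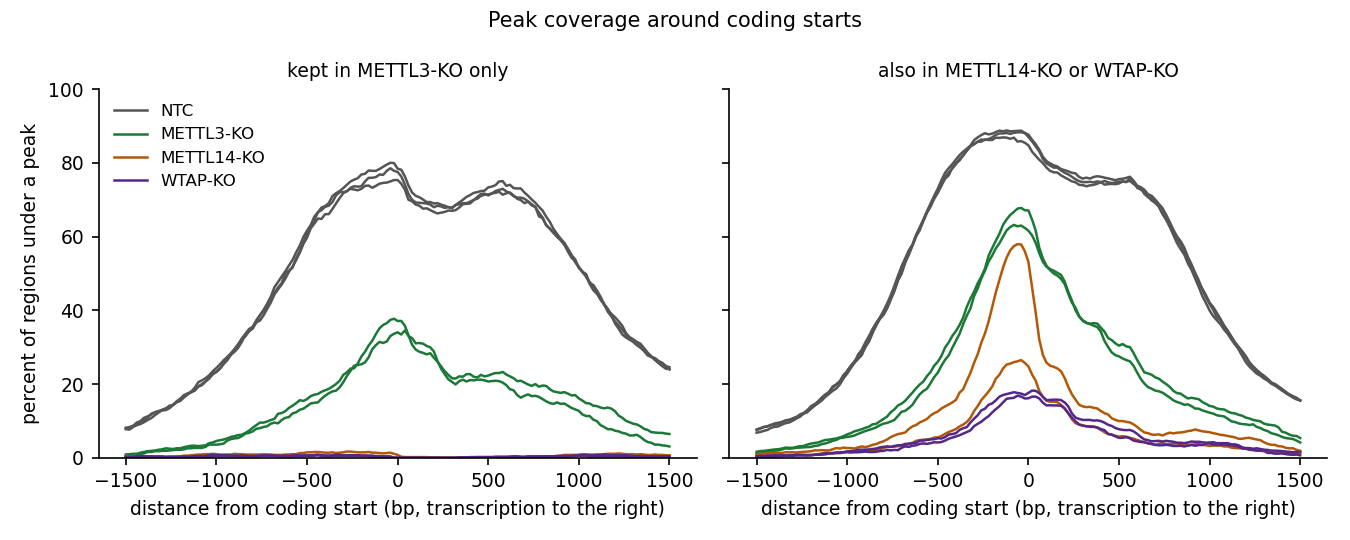
Percent of regions with a peak at each distance from a coding start (bp, direction of transcription to the right), one line per library, for members (left) and regions also kept in METTL14-KO or WTAP-KO (right). At the start itself METTL3-KO peaks cover 37.1% and 34.0% of the members and 67.1% and 61.6% of the other regions.

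Nearly all members lay within 1 kb of an annotated start. Of the 1166, 1005 (86.2%) lay within 1 kb of a coding start, 78 (6.69%) at a lncRNA start, 16 in an exon, 24 in an intron and 43 (3.69%) between genes. A coding start lay inside 798 of the 1005. In 844 of them 1 coding gene had its start in reach, in 148 there were 2 and in 13 more than 2, and 149 (14.8%) had coding starts on both strands. The share at coding starts was 83.7% in the regions also kept in METTL14-KO or WTAP-KO and 48.1% in those with no KO peak. With other NTC regions weighted to the deciles of the members it was 69.4%, and with the regions without a KO peak weighted in this way it was 52.8%.

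The members were also CpG-rich. The median GC content was 54.3% at the members, 53.8% at regions also kept in METTL14-KO or WTAP-KO and 52.8% at regions without a KO peak, and weighting to the deciles of the members moved the last to 50.8%. The CpG ratio, the observed number of CpG over that given by the C and G content, had a median of 0.68 at the members, and 0.41 in regions without a KO peak at equal NTC signal. Regions kept more widely had 0.68 on that weighting, and a GC content of 55.7%. Between deciles 5 and 10 the GC content of members went from 59.7% to 51.1%. In each of these deciles it was above that of the regions without a KO peak. The bases under METTL3-KO peaks had a median GC content of 57.9%, above that of the whole member regions. Widths at equal NTC signal were near each other, with medians of 1453 bp at the members and 1516 bp without a KO peak.

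**Figure D4:**
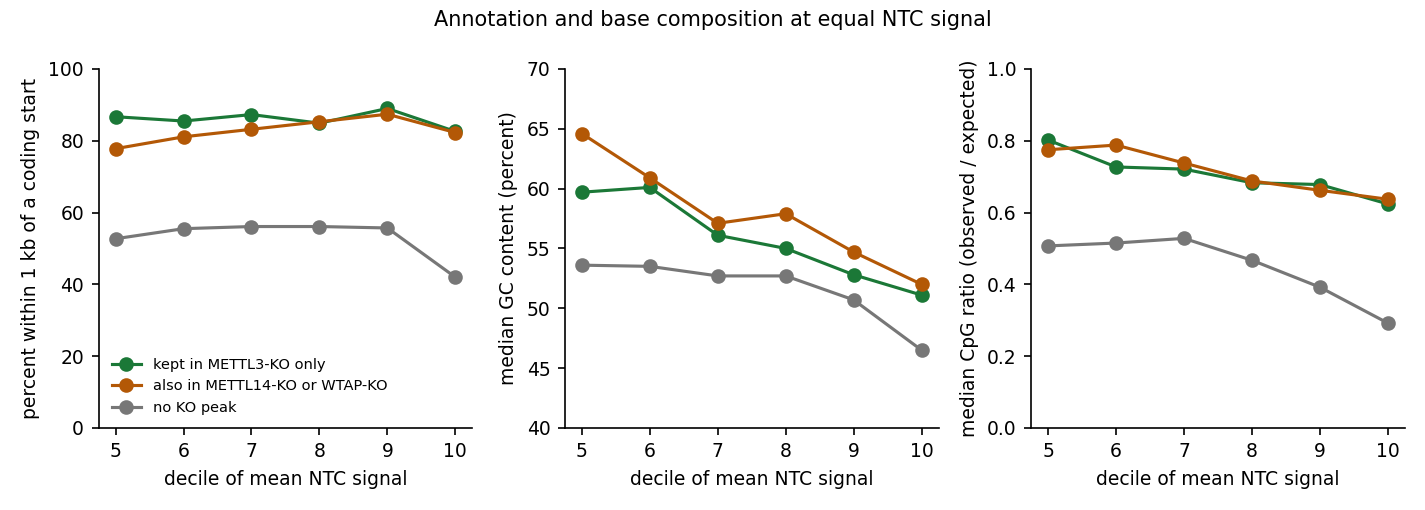
Percent of regions within 1 kb of a coding start, median GC content (percent) and median CpG ratio (observed over expected) in deciles 5 to 10 of mean NTC signal, for members, regions also kept in METTL14-KO or WTAP-KO, and regions with no KO peak. In the tenth decile 82.6% of members and 42.0% of regions with no KO peak lie at a coding start.

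Short motifs were searched on both strands in the 300 bp at the centre of each region, and a match is a description only. GGGCGG, the GC box, was found in 45.2% of the members, 47.2% of the regions also kept in METTL14-KO or WTAP-KO, 29.3% of the regions with no KO peak and 33.6% of all NTC regions. CCNCNCCC, a form of the CACCC element bound by Krüppel-like factors, which overlaps the GC box in some sequences, stood in 53.3% of the members and 47.8% of all NTC regions. CCGGAAGT, an ETS motif, stood in 4.37% and 2.15%, and GCATGCGC, an NRF1 motif, in 2.49% and 1.42%. AGATAA, bound by GATA factors, was found in 9.26% of the members and 14.4% of all NTC regions. CCAAT stood in 28.6% and 29.1%. AAGATGGC, a YY1 motif, stood in 2.49% and 1.94%, and the cyclic AMP response element TGACGTCA in 1.63% and 0.715%. The regions also kept in METTL14-KO or WTAP-KO held CCNCNCCC in 54.4%, CCGGAAGT in 5.39%, GCATGCGC in 2.69% and AGATAA in 8.45%. They held CCAAT in 33.8%, AAGATGGC in 3.59% and TGACGTCA in 1.16%. Weighted to the deciles of the members, the regions with no KO peak held GGGCGG in 24.3% and AGATAA in 15.6%. On that weighting the regions also kept in METTL14-KO or WTAP-KO held GGGCGG in 50.5%, CCNCNCCC in 58.2% and AGATAA in 7.31%. They held CCGGAAGT in 5.22%, GCATGCGC in 3.09%, AAGATGGC in 3.56%, CCAAT in 32.9% and TGACGTCA in 1.18%. In the promoters printed above, GGGCGG or its complement occurred 3 times before KLF13 and 2 times before YTHDC1.

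Members lay on every autosome and 1 lay on the X chromosome. Chromosome X had 449 NTC regions, and the decile rates of the whole genome would give 4.59 members there, while 441 of its NTC regions had no KO peak. Chromosome 21 had 9 members against 21.2 at the decile rates and chromosome 19 had 74 against 101. Chromosome 1 had the most, 145, and chromosome 7 had 62 against 47.2. A METTL14-KO or WTAP-KO peak lay outside the region but within 1 kb of 59 members (5.06%), and within 5 kb of 123 (10.5%), near the 3.78% and 9.46% of all NTC regions.

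Members lay within 1 kb of a start of 1143 coding genes. This was 14.1% of the 8105 coding genes with an NTC region so placed. The start lay outside the region at some genes named here, by 783 bp at INO80D, 614 bp at SRF and 554 bp at RPN1. It was 553 bp away at PPP1R10, 364 bp at EIF3A and 290 bp at CDK6. For 132 of the 1143 genes another region near a start had a peak in at least 1 METTL14-KO or WTAP-KO library. Gene lists are given as counts beside that 14.1%, and were not matched for NTC signal. Members made up 5.11% of the NTC regions in the sixth decile, 22.9% in the ninth and 15.2% in the tenth. Whether NTC signal underlies the share of any list was not tested. A list counted below may contain genes that share 1 region.

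Of 14 m6A writers, erasers and readers marked in NTC, 4 (28.6%) lay at members, where 14.1% of all marked genes did. Of the 14, 3 had a METTL14-KO or WTAP-KO peak and 8 had neither. The 4 at members were METTL14, METTL5 (the ribosomal RNA m6A enzyme), YTHDC1 and EIF3A (a subunit of initiation factor 3, some of which bind m6A). METTL14 is itself the gene targeted by CRISPR in the METTL14-KO libraries, whose missing peak is part of the rule. Its region, chr4:119606242-119607406, had signals of 3837, 3338 and 5174 in NTC and 965 and 349 in METTL3-KO. Neither METTL3-KO value reached the NTC range, and the log2 change was -2.80 ± 0.52 (SE, limma adjusted p = 0.0012). YTHDC1 at chr4:69214152-69216146 had 9047, 10208 and 10358 in NTC and 609 and 467 in METTL3-KO. Its METTL3-KO mean was 5.45% of NTC, with a log2 change of -4.21 ± 0.33 (SE, limma adjusted p = 0.00012). METTL5 kept 7.64% and EIF3A 16.9%, and EIF3A had another region near a start with a METTL14-KO or WTAP-KO peak, 491 bp away. Relative to the library medians METTL14 and EIF3A turned to changes of 0.19 and 0.41, which did not pass, METTL5 had -0.76, which did not pass, and YTHDC1 was lower (-1.21, limma adjusted p = 0.014). Divided by the step, EIF3A did not pass (limma adjusted p = 0.096).

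Of 23 marked genes of H3K4 methyltransferase complexes and demethylases, 4 lay at members (17.4%), all of them tied to the methyltransferases, and 10 of the 23 had a METTL14-KO or WTAP-KO peak. CXXC1 was also the 1 gene at a member among 7 marked hits of the study's retests for CD235a, a list that the study chose itself and that is not independent evidence. At chr18:47813433-47815014 it had NTC signals of 5540, 3640 and 4844 and METTL3-KO signals of 796 and 262. The METTL3-KO mean was 11.3% of NTC, with a log2 change of -3.33 ± 0.54 (SE, limma adjusted p = 0.00068). RBBP5 at chr1:205090232-205092171 had 6279, 7290 and 9068 in NTC and 424 and 687 in METTL3-KO. The other 2 were NCOA6, a nuclear receptor coactivator of the MLL3 and MLL4 complexes, at 12.3% of NTC, and BOD1L1, a SET1-associated replication fork protein, at 13.4%. NCOA6 also had a second region with a METTL14-KO or WTAP-KO peak, 399 bp away. After centring BOD1L1 turned to a change of 0.069, and none of the 4 passed.

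Of 17 erythroid and megakaryocytic transcription factors marked in NTC, 2 (11.8%) lay at members, near the 14.1% of all marked genes. KLF13 and BCL11A (a repressor of fetal globin) were these, and 7 of the 17 had a METTL14-KO or WTAP-KO peak. KLF13 had 6395, 5256 and 6835 in NTC and 339 and 318 in METTL3-KO, which left 5.33%. BCL11A had 7010, 8993 and 9522 in NTC and 2262 and 1368 in METTL3-KO, which left 21.3%, and 2 other regions near its starts had a METTL14-KO or WTAP-KO peak. On the centred scale KLF13 was lower (-1.23, limma adjusted p = 0.035) and BCL11A higher (0.73, limma adjusted p = 0.029). Divided by the step, BCL11A did not pass (limma adjusted p = 0.16). Of 22 genes of heme synthesis and iron handling, 1 (4.55%) lay at a member: GLRX5, a mitochondrial glutaredoxin of iron-sulfur cluster assembly, with 4342, 7309 and 5512 in NTC and 243 and 346 in METTL3-KO. Of the 22, 15 had neither a member nor a METTL14-KO or WTAP-KO peak. No member lay at the 19 marked genes of EPO receptor and JAK-STAT signalling, the 8 megakaryocyte and platelet genes, the 1 marked gene of the globin list or the 4 lymphoid genes.

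Of 12 marked genes of the red cell membrane and skeleton, 3 (25%) lay at members. ADD1 and TMOD3, which cap actin in the membrane skeleton, kept 15.7% and 17.2% of their NTC signal, and BSG, which carries the Ok blood group, kept 5.36%. BSG had 12948, 10158 and 12966 in NTC and 886 and 403 in METTL3-KO. Relative to the library medians ADD1 and TMOD3 turned to changes of 0.28 and 0.23, which did not pass, and BSG was lower (-1.33, limma adjusted p = 0.0081). ADD1 and TMOD3 also did not pass when divided by the step.

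**Figure D5:**
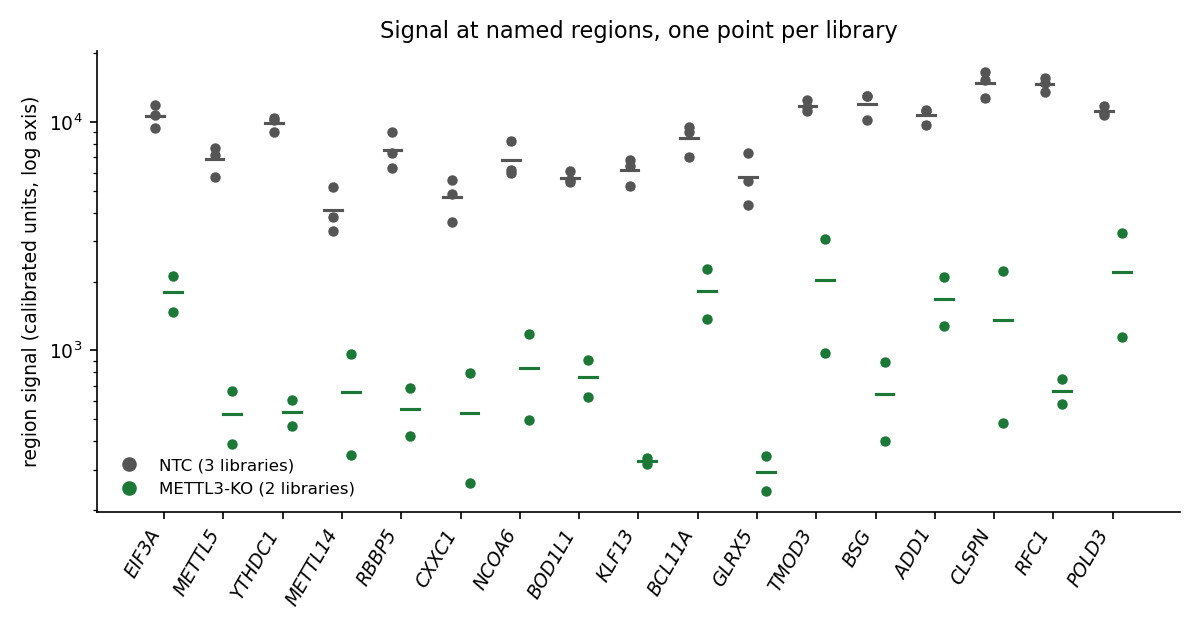
Region signal in calibrated units (log axis) at named members, one point per library, with short lines at the group means, for 3 NTC and 2 METTL3-KO libraries. The regions are from the lists of m6A machinery, H3K4 methyltransferase complexes, erythroid transcription factors, heme and iron, red cell membrane, and the 3 strongest of DNA replication. Every METTL3-KO point lies below every NTC point of its region, from GLRX5 at 243 to POLD3 at 3262.

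Translation factors had the largest share of the lists counted, without matching for NTC signal. Of 46 marked genes named EIF or EEF, 15 (32.6%) lay at members, and 14 had a METTL14-KO or WTAP-KO peak. The list is by symbol, and 4 of the 15, EEF1AKMT2, EEF2K, EIF2AK2 and EIF4ENIF1, encode enzymes or partners of the factors. EIF4E, the cap-binding protein, had 12801, 11510 and 17748 in NTC and 1952 and 623 in METTL3-KO, or 9.18% of NTC. EIF3E, a subunit of initiation factor 3 that shares its region with EMC2 and has another region with a METTL14-KO or WTAP-KO peak, kept 14.4%, and EIF5A2, an elongation factor, kept 10.3%. EEF1D, which loads elongation factor 1 with GTP, was among the best kept of all members, with 2405, 3666 and 3790 in NTC and 1182 and 1163 in METTL3-KO. On the centred scale its region, shared with TIGD5, turned to 1.54 (limma adjusted p = 0.022), and 4 of the 15 regions were lower and 1 higher, where 26.0% of all members were lower and 2.57% higher. Divided by the step, that region did not pass (limma adjusted p = 0.49). Across the 15 regions the share kept was 3.63% to 35.7%, and all 15 passed as lower on the calibrated scale, as 98.4% of all regions did.

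Of 65 marked cytosolic ribosomal protein genes 11 (16.9%) lay at members and 31 had a METTL14-KO or WTAP-KO peak. RPL23, a large subunit protein, had 9204, 8446 and 10027 in NTC and 3025 and 1293 in METTL3-KO. RPSA and RPS29, small subunit proteins, kept 16.1% and 20.1%. Of 60 mitochondrial ribosomal protein genes 9 lay at members and 34 had a METTL14-KO or WTAP-KO peak. MRPL54, which shares its region with APBA3, kept 4.08%, and MRPL27 and MRPL9 kept 18.8% and 19.7%. On the centred scale RPL23 turned to 0.78 (limma adjusted p = 0.024), while RPSA at 0.089, RPS29 at 0.53, MRPL27 at 0.53 and MRPL9 at 0.32 also changed sign and did not pass, and MRPL54 was lower (-2.20, limma adjusted p = 0.027). Divided by the step, RPL23, RPS29, MRPL27 and MRPL9 did not pass.

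Cell cycle genes at members included the replication proteins CLSPN, GINS1, POLD3, POLE3, RFC1 and RPA2, 6 of 27 marked (22.2%), and 5 of 26 cyclins, CDKs and CDK inhibitors (19.2%): CCNA2, CCNC, CCNG2, CDK2 and CDK6. RFC1, the large subunit of the clamp loader, had 14834, 13515 and 15507 in NTC and 582 and 751 in METTL3-KO, which left 4.56%. POLD3, a subunit of DNA polymerase delta, kept 19.8%, and CLSPN, a checkpoint mediator, 9.16%. CDK6, a kinase of the G1 phase, had 9841, 9374 and 12711 in NTC and 2057 and 698 in METTL3-KO. CDK2, which shares its region with PMEL, kept 14.7% and CCNC, a cyclin of the Mediator kinase module, 15.4%. On the centred scale POLD3, CCNC and CDK2 turned to changes of 0.46, 0.19 and 0.23, none of which passed, and RFC1 was lower (-1.47, limma adjusted p = 0.023). POLD3, CCNC and CDK2 also did not pass when divided by the step. CDK2 had another region near a start with a METTL14-KO or WTAP-KO peak.

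Of the remaining lists, 3 of 19 SWI/SNF remodeler genes (15.8%), 10 of 56 splicing genes (17.9%), 12 of 63 respiratory chain genes (19.0%), 7 of 28 proteasome genes, 8 of 40 chaperones and 40 of 319 ZNF genes (12.5%) lay at members. Of 15 marked replication-dependent histone genes it was 1, H2AC21. SMARCA4, an ATPase of SWI/SNF, kept 22.6% of its NTC signal, PBRM1, a bromodomain subunit that shares its region with GNL3, kept 8.02%, and SMARCD2 kept 6.20%. PBRM1, SMARCD2 and PSME3 each had another region with a METTL14-KO or WTAP-KO peak. SRSF2, a splicing factor that shares its region with MFSD11, had 8831, 8749 and 8847 in NTC and 1986 and 374 in METTL3-KO. COX17, a copper chaperone of cytochrome oxidase, kept 7.95%, and ATP5F1A, a subunit of ATP synthase, 7.67%. PSMB10, an immunoproteasome subunit, kept 9.09%, PSMA7 7.81% and PSME3 19.9%. SNRNP27, a protein of the tri-snRNP, kept 22.2%. On the centred scale SMARCA4 at 0.80 and PSME3 at 0.66 changed sign and did not pass, and SNRNP27 turned to 0.82 (limma adjusted p = 0.038). SMARCA4, PSME3 and SNRNP27 did not pass when divided by the step. ZNF620 had 16240, 13997 and 17917 in NTC and 514 and 461 in METTL3-KO, which left 3.04%. Of the 38 regions at ZNF genes, 12 were lower and 0 higher on the centred scale, where 26.0% of all members were lower and 2.57% higher.

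The members of highest NTC signal were mixed in kind. The highest, inside PSMB2 at chr1:36102814-36104588, had 29442, 27932 and 31824 in NTC and 1543 and 169 in METTL3-KO. Its METTL3-KO libraries lay far apart, and the log2 change was -5.86 ± 0.82 (SE, limma adjusted p = 0.00036). The region was named for its NTC signal, a part of this contrast, so the p-value is not independent support. NCR1, which encodes a receptor of natural killer cells, had 23950, 22803 and 28288 in NTC and 1050 and 477 in METTL3-KO. SMURF2, a ubiquitin ligase, kept 7.45% of its NTC signal, SRF, the serum response factor, 6.43%, PPP1R10, a nuclear targeting subunit of a protein phosphatase, 7.81%, and RPN1, a subunit of the oligosaccharyltransferase, 13.8%. The other 2 of the 8 lay at an unnamed lncRNA start on chromosome 1 and in an intron on chromosome 15. PPP1R10 had METTL3-KO signals of 3274 and 81.2, and a second region with a METTL14-KO or WTAP-KO peak 816 bp away, as SRF had 549 bp away.

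At coding starts the share of NTC signal kept ran from 1.02% to 50.0%. The lowest 6 were EML2 (1.02%), PCOLCE2 (1.24%), INO80D (1.35%), TRIM2 (1.36%), NIN (1.44%) and C5orf24 (1.51%), of which EML2 had another region with a METTL14-KO or WTAP-KO peak. TRIM2, a ubiquitin ligase of neurons, had 13713, 12286 and 13922 in NTC and 173 and 188 in METTL3-KO, with a log2 change of -6.20 ± 0.34 (SE, limma adjusted p = 0.00012). TRIM2 was named for its low ratio in these same libraries, so the p-value is not independent support. Among the best kept were CACTIN, NUBP2/SPSB3 (41.5%), C22orf23/POLR2F (36.4%), EEF1D/TIGD5 (35.7%) and FRAT1 (34.4%). POLR2F, a subunit shared by the nuclear RNA polymerases, had 5601, 5059 and 7271 in NTC and 2382 and 1964 in METTL3-KO. FRAT1, a GSK3-binding protein, had 1837, 2469 and 2966 in NTC and 685 and 980 in METTL3-KO. On the calibrated scale these 5 had lower means in METTL3-KO and all but CACTIN passed, while on the centred scale the 5 had changes above 0, from 1.46 at FRAT1 to 2.05 at CACTIN. Divided by the step or with a replicate block, none of the other 4 passed.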

How the data were processed

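H3K4me3 CUT&RUN was available for 9 HEL libraries, grouped by the labels. The authors aligned paired reads with Bowtie to hg19 and to sacCer3 for a yeast spike-in, calibrated each library by it, removed duplicates with Picard and called peaks in each library; versions are not given in the sources used here. The deposited lists hold position and a calibrated signal per peak, and no fragment totals, so depth is unknown. The start column was assumed to count from 0, and positions are printed from 1.

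The 99358 peaks were merged at 1 bp of overlap. A region's signal in a library was the sum of its peaks. Log2 signal and log2 covered bp of the 3060 regions with a peak in all 5 NTC and METTL3-KO libraries were compared with limma 3.58.1 (R 4.3.3, unpaired, eBayes with trend, Benjamini-Hochberg at 0.05 over all 3060). The fit was also run on simulated regions, most of them unchanged, whereas 98.4% of the 3060 passed as lower here. That run is no check of these calls. METTL14-KO and WTAP-KO libraries have no value at members and entered only an alternative fit with a pseudocount. Annotation was GENCODE on hg19 (coding starts within 1 kb, 20149 genes). Python 3.11.15, pandas 2.3.3, pysam 0.24.0 and matplotlib 3.10.9 were used. Named were the 8 members of highest NTC signal, members of the 6 highest and 6 lowest ratios at coding starts, all members of the erythroid, heme, red cell, m6A and H3K4 lists, up to 3 by NTC signal of other lists, and members or neighbours at the edge of the rule. The 3 members that did not pass were named after their values were seen. The members, lists and tests were chosen with earlier results of these data known. The labels name no batch. A few items that these rules would name are not reported here.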

Additional observations from a re-analysis of the deposited data

How the results depend on the processing

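The number of members was 1166 as reported, 1043 to 1172 with the distance, floor and merging alternatives, 967 where peaks had to cover a set part of the region, and 634 with peaks at or above the lower quartile of NTC peaks, where 89.3% lay at coding starts. Merging peaks within 1 kb gave 1166 regions too, but 706 of them had the bounds of a member, and the median GC content was then 55.1%, against 57.9% in the bases under METTL3-KO peaks. A floor of 94 steps in every library, chosen after seeing the data, gave 1116. Leaving out 1 library gave 1196 to 1936 regions, with 1936 without METTL3-KO replicate 2 and 1775 without METTL14-KO replicate 1, shares at coding starts of 84.7% to 86.9% and GC contents of 54.2% to 55.1%. The count of members lower in METTL3-KO was 1158 to 1165 and the median change -3.91 to -3.09 when 1 library was left out, and covered bases were fewer in 1087 to 1144. Centring turned these into 303 lower members, a median of -0.54 and 281 members with fewer covered bases, with 99 more, since it takes out the shift shared by all regions. Dividing by the step, which takes out the calibration, gave 942 lower members, 1565 lower of all 3060 regions and a median of -2.70 at members. On that scale 18 of 68 named regions no longer passed, which are those listed last other than CACTIN, METTL14, BOD1L1 and RPSA. With a replicate block 1156 members were lower, the median was -3.46, 1121 had fewer covered bases and 4 of 68 named regions no longer passed (NUBP2/SPSB3, C22orf23/POLR2F, EEF1D/TIGD5 and FRAT1). The labels give NTC and METTL3-KO 2 shared numbers. After the mean of each group was taken out, NTC and METTL3-KO signal correlated at -0.11 for replicate 1 and -0.01 for replicate 2. With 2 METTL3-KO libraries the remainders mirror each other, and NTC replicate 1 gave -0.112 with METTL3-KO replicate 1 and 0.112 with replicate 2. These values therefore cannot show whether libraries with a shared number had more than that number in common. Centring reversed the sign at 22 of 68 named regions: CACTIN 2.05, NUBP2/SPSB3 1.53, C22orf23/POLR2F 1.54, EEF1D/TIGD5 1.54, FRAT1 1.46, BCL11A 0.73, TMOD3 0.23, ADD1 0.28, EIF3A 0.41, METTL14 0.19, BOD1L1 0.069, POLD3 0.46, CCNC 0.19, CDK2/PMEL 0.23, SMARCA4 0.80, RPL23 0.78, RPSA 0.089, RPS29 0.53, EME1/MRPL27 0.53, MRPL9/OAZ3 0.32, SNRNP27 0.82 and BECN1/PSME3 0.66. The cause of the other changes was not tested. Depth could not be assessed, and a region without a peak may hold signal under the lowest deposited value.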
